A study of Homo sapiens with 4 samples.

Results

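The mRNAs of 10 enzymes of glucose breakdown, HK2, GPI, PFKP, ALDOA, TPI1, GAPDH, PGK1, ENO1, PKM and LDHA, were read out of 63677 genes counted in HCT116 cells. HCT116 is an established human colorectal cancer cell line. The members were found by the Ensembl identifier of each gene symbol, all 10 matched a row, and all 10 passed the filter on low counts that left 15116 genes for testing. Cells were transfected for 48 h, per the labels, with the anti-GAA antisense oligonucleotide (ASO) or with a control ASO, with 2 libraries of RNA for each. The methods of the study give a shorter transfection for its ASOs. The libraries are named here by ASO and replicate, where replicate 1 carries the number 232 and replicate 2 the number 234 in the sample titles. The methods of the study describe the libraries as duplicate experiments, and the p-values measure the spread between these libraries. Total counts were 10538284 for anti-GAA replicate 1, 17894953 for anti-GAA replicate 2, 15347298 for control replicate 1 and 15924742 for control replicate 2. GAPDH also served the study, together with HPRT1, as a reference gene for RT-qPCR in total and cytoplasmic extracts, which makes its own counts of practical interest.

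Glycolysis splits glucose into pyruvate in a chain of cytosolic reactions and yields ATP without oxygen. Hexokinase traps glucose as a phosphate, phosphofructokinase commits it to the pathway, aldolase cuts the sugar into triose phosphates, and the lower enzymes from GAPDH to pyruvate kinase harvest ATP and NADH. Cancer cells commonly run the pathway at a high rate and reduce pyruvate to lactate, and several of the genes are textbook targets of the hypoxia-inducible factor HIF-1.

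The anti-GAA ASO is a gapmer, an oligonucleotide with a DNA centre that recruits RNase H to the RNA it pairs with and with modified ends that protect it. It is 21 nt long, of which 12 carry the 2′-O-methoxyethyl modification. It is shown because the first question for any gene in this comparison is whether its mRNA carries the repeat that the ASO pairs with.
anti-GAA ASO: ttcttcttcttcttcttcttc
RNA target, as DNA: gaagaagaagaagaagaagaa
No member held a long repeat in its canonical transcript. Introns and other transcripts were not searched. The longest uninterrupted run of GAA, in any frame, in the canonical transcripts (GENCODE 44) was 8 nt, in ALDOA, PKM and LDHA, and 6 nt in GAPDH, HK2, TPI1 and ENO1. The median over 14751 tested genes with a transcript was 7 nt, and 20.1% of them had a run of at least 9 nt against 0 of 10 members. The best match of the GAPDH transcript to the 21-nt target had 14 identical bases, and those of the other members had 13 to 15.

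Most of the epithelial markers were expressed in every library, and a pair of intestinal ones was nearly absent. EPCAM, KRT8, KRT18, KRT19, CDH1 and CDX2 passed the filter, and the summed level of the 8 epithelial markers was 2575, 2907, 2669 and 2911 CPM (counts scaled to a common library size with TMM factors) in anti-GAA replicates 1 and 2 and control replicates 1 and 2. VIL1, a gene of the intestinal brush border, had 0 and 2 reads in anti-GAA replicates 1 and 2 and 0 and 1 in the controls, and LGR5, a crypt stem cell gene, was at 0 counts in all 4 libraries. The 12 markers of other cell types summed to 11.9, 17.1, 15.6 and 21.2 CPM in the same order, with COL1A1 the most abundant and 5 of the 12 at 0 counts throughout.

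Along the pathway, the level per length differed widely between the enzymes, from HK2 at the low end to ENO1 at the high end. Levels are given here as CPM per kilobase of the canonical transcript, as the mean ± SD of the 4 libraries. HK2, the inducible hexokinase, was at 8.16 ± 2.30. GPI, which turns glucose 6-phosphate into fructose 6-phosphate, was at 67.6 ± 15.6. PFKP, the platelet type of phosphofructokinase, was at 279 ± 6.67 and varied least among the members relative to its mean. ALDOA, the aldolase of muscle and most growing cells, was at 135 ± 9.26, and TPI1, which interconverts the triose phosphates, was at 995 ± 113. GAPDH, which oxidises glyceraldehyde 3-phosphate and makes the NADH of the pathway, was at 53.7 ± 14.7. PGK1, the first ATP-forming step, was at 253 ± 82.6, ENO1, the enolase of most tissues, at 1343 ± 158, PKM, pyruvate kinase, at 265 ± 42.8, and LDHA, which makes lactate, at 680 ± 117.

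**Figure D1:**
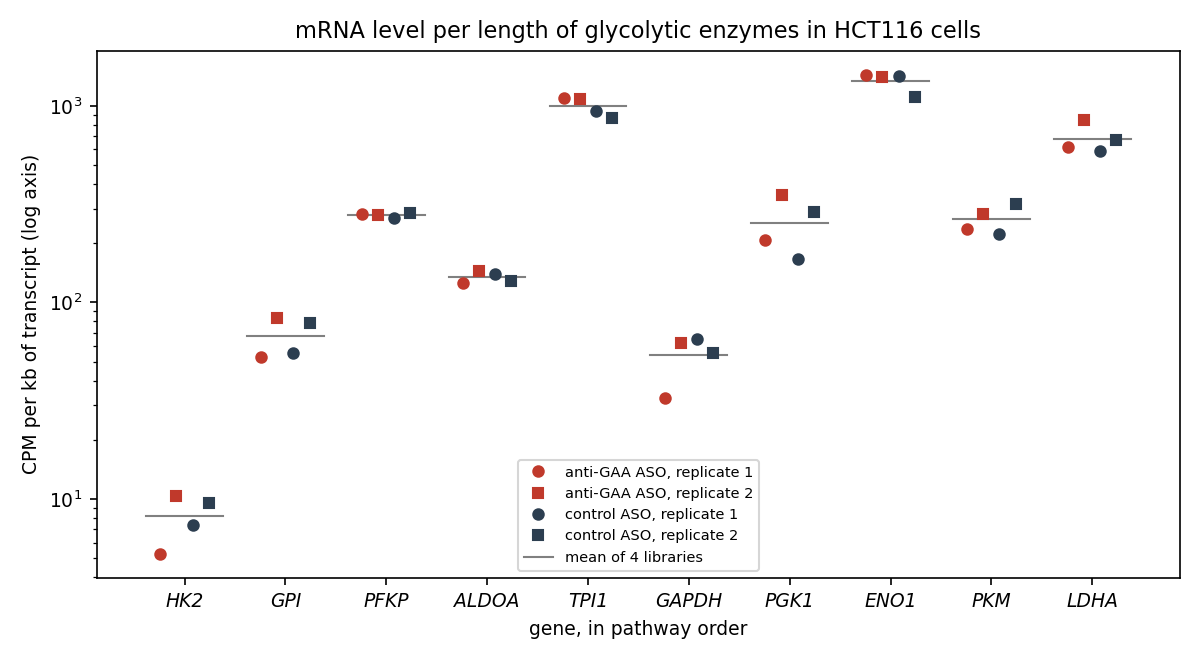
Level per length (CPM per kb of canonical transcript, log axis) of the 10 glycolytic enzymes in pathway order, with 1 point per library and a grey line at the mean of 4 libraries. GAPDH lies between 32.6 and 64.9, far under its neighbours TPI1 (864 to 1097) and PGK1 (166 to 351).

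ENO1, TPI1 and LDHA formed the top of the order, and the ranges of these 3 over the 4 libraries did not overlap with each other or with the next gene. PFKP, PKM and PGK1 followed with ranges that overlapped, so their order among themselves was not separated by the spread. ALDOA lay under all 3. GPI and GAPDH came next, with overlapping ranges and GPI above GAPDH in 3 of 4 libraries, and HK2 was last in all 4. Levels and order depended on the length used. By the union of exons of all transcripts, TPI1 (498) lay above ENO1 (459), PGK1 (224) above PFKP (94.2) and PKM (71.3), and GAPDH (28.8) above GPI (26.1). Among 12179 protein-coding genes tested, ENO1 ranked 69th and TPI1 101st by level per length, while GAPDH ranked 1509th and HK2 5244th.

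GAPDH stood out from the steps on either side of it. Its row held 415 and 1426 reads in anti-GAA replicates 1 and 2, and 1278 and 1201 in control replicates 1 and 2. TPI1, a transcript of similar length, held 14664, 25999, 19430 and 19787 reads in the same order, and PGK1 held 9863, 30035, 12257 and 23555. Per length, the log2 ratio of GAPDH to the geometric mean of TPI1 and PGK1 was −3.87 and −3.30 in the anti-GAA libraries and −2.61 and −3.18 in the control libraries. The mean log2 ratio was −3.24 ± 0.52 (SD, n = 4), which is 9.44-fold. The gap was present in every library, and it was smallest in control replicate 1.

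More reads stood in a row for one of the processed pseudogenes of GAPDH than in the row of GAPDH itself. Processed pseudogenes are intronless copies of an mRNA that were inserted elsewhere in the genome, and GAPDH has one of the largest families of them. The count table has 64 rows named as GAPDH pseudogenes, 26 of them with reads, and they summed to 18203 reads over the 4 libraries against 4320 for GAPDH itself. GAPDHP40 alone (ENSG00000248626, chr5:159950493-159951498 of GRCh38, minus strand) held 2263 and 5702 reads in the anti-GAA libraries and 4427 and 4246 in the control libraries. That is 90.3% to 92.4% of the pseudogene reads in each library, and 5.45 times the GAPDH count in anti-GAA replicate 1 and 3.999, 3.46 and 3.54 times in anti-GAA replicate 2 and control replicates 1 and 2. The next rows, GAPDHP35 with 94 to 376 reads and GAPDHP65 with 55 to 153 reads, were far smaller.

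**Figure D2:**
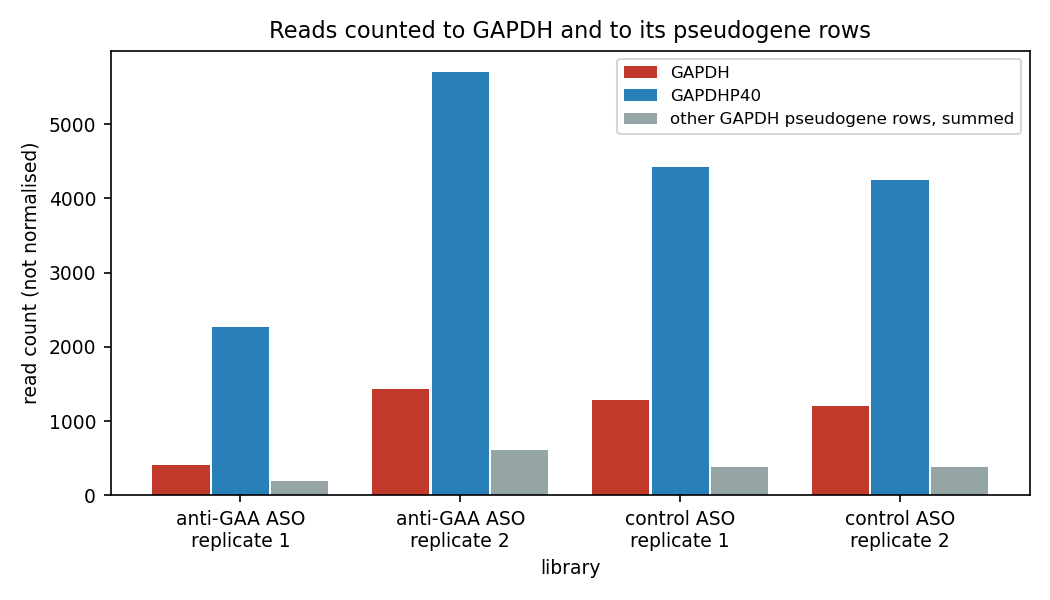
Reads counted (not normalised) to GAPDH, to GAPDHP40 and to the other GAPDH pseudogene rows together, in each of the 4 libraries. In every library the GAPDHP40 bar is the tallest, from 2263 to 5702 reads against 415 to 1426 for GAPDH.

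GAPDHP40 resembles the GAPDH mRNA closely but not perfectly. Aligned over 1004 nt, from position 78 to 1084 of the 1285-nt GAPDH transcript, the copy was identical at 90.6% of positions and differed at 94, and the longest identical stretch was 74 nt. The 90 coding bases of GAPDH in 1 exon with the most differences are printed here. They show the clearest case for separating the gene from its copy by a read of this length, and not a typical one. Capitals mark the 15 positions that differ. The GAPDH stretch is chr12:6537714-6537803 (GRCh38, plus strand, exon 8 of 9, coding) and the GAPDHP40 stretch is chr5:159950756-159950845 (minus strand).
GAPDH: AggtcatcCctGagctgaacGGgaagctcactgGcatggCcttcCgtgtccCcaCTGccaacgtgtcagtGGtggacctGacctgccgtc
GAPDHP40: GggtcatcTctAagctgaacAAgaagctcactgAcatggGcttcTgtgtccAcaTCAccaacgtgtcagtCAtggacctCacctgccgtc
Whether the reads in the GAPDHP40 row come from GAPDH mRNA or from GAPDHP40 was not tested, since only counts per gene were used here.

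Sequence shared with other places in the genome was measured for each member on GRCh38. Of the 75-base windows of the GAPDH transcript, 3.80% occurred elsewhere in the genome without a mismatch, against 23.7% of those of TPI1, 6.90% of HK2, 4.75% of LDHA, 3.93% of PGK1 and 0% of PFKP and ALDOA. These windows of GAPDH lay on chromosome X. None lay in GAPDHP40, whose longest identical stretch was 74 nt. With 50-base windows the shares were 25.6% for GAPDH and 42.6% for TPI1, and with 100-base windows 0% and 12.6%. The 4 pseudogene rows of TPI1 held 135 reads in all, nearly all in TPI1P1 (134). Those of LDHA held 130, most in LDHAP4 (79), LDHAP5 (32) and LDHAP7 (8), and those of PGK1 (PGK1P1 and PGK1P2) and PKM (PKMP1 and PKMP3) held 23 and 7. Only for GAPDH among the 10 members did pseudogene rows exceed the gene, at 4.21 reads per read of the gene.

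An antisense gene also lies on GAPDH. ENSG00000269968, a long non-coding RNA on the minus strand (chr12:6537794-6538370), covers 422 nt, or 32.8%, of the GAPDH transcript, and its row was at 0 counts in all 4 libraries. The strand setting of the counting is not given in the sources used here, and without strand a read in the shared part belongs to both genes. Windows of 75 bases that were neither found elsewhere nor within an overlapping gene made up 58.5% of GAPDH, 75.2% of TPI1 and 96.1% of PGK1. Per kilobase of such windows, an alternative added after the data were seen, GAPDH was at 97.4, above GPI at 86.3, and its mean log2 ratio to the neighbours was −2.67. With GAPDHP40 added to GAPDH, also added after seeing the data, the log2 ratio was −0.90. With the pseudogene rows of each member added to that member, it was −0.80. The summed GAPDH level was then 285 CPM per kb, close to that of PFKP.

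The primers that the study used for GAPDH in RT-qPCR are shown for the same reason. They pair with positions 57 to 75 and 104 to 122 of the transcript and bound an amplicon of 66 nt.
GAPDH forward primer: agccacatcgctcagacac
GAPDH reverse primer: gcccaatacgaccaaatcc
In the genome, the forward primer had 1 exact match, in GAPDH (chr12:6534813-6534831, GRCh38). The reverse primer, which spans an exon junction in the mRNA, matched GAPDHP35 on chromosome 16 and GAPDHP72 on chromosome 6. GAPDHP40 held neither primer without a mismatch, and no place outside GAPDH matched both.

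No glycolytic enzyme passed the test for a change with the anti-GAA ASO. At an adjusted p under 0.05 (edgeR's quasi-likelihood test, Benjamini-Hochberg over all genes), 0 of 10 members were called, against 0 of 15116 genes tested, or 0%. DESeq2 called 5 genes of the whole table, all lower, and none of them was a member. At an unadjusted p under 0.05, 0 of 10 members passed in edgeR and 0 in DESeq2, against 3.46% of all tested genes lower and 1.02% higher in edgeR. Of the 10, 7 had a log2 fold change above 0, against 51.6% of all genes. This count was 4 with scaling to total counts, and 3 to 10 with 1 library left out. The median of the 10 was 0.015 against 0.013 for all genes. The standard errors of the members ran from 0.18 to 0.35 on the log2 scale.

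**Figure D3:**
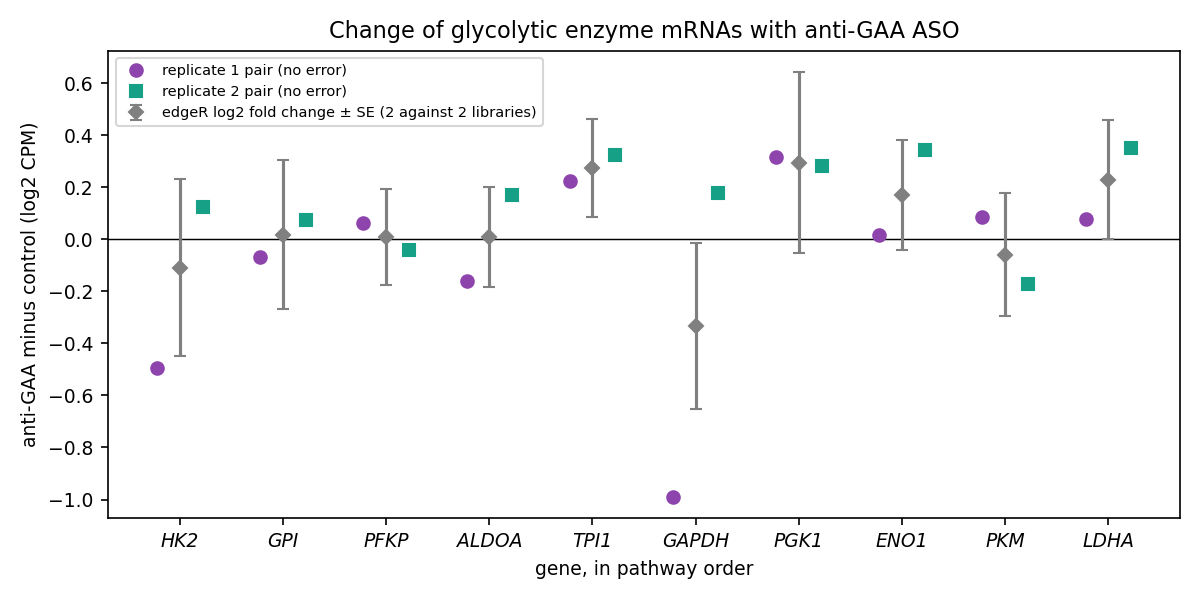
Difference between anti-GAA and control ASO (log2 CPM) for each enzyme in pathway order, with the edgeR log2 fold change ± SE in grey and the differences within the replicate 1 pair and the replicate 2 pair as circles and squares. GAPDH shows the widest split, −0.99 in the first pair and 0.18 in the second.

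For the upper enzymes the differences were small and of either sign. HK2 was at 29.6 and 58.6 CPM in anti-GAA replicates 1 and 2 and at 41.7 and 53.7 in the controls, with a log2 fold change of −0.11 ± 0.34 (SE). Its pairs differed in sign, at −0.49 in replicate 1 and 0.13 in replicate 2 (log2 CPM with a prior count of 2, anti-GAA minus control). GPI gave −0.07 and 0.08, PFKP 0.06 and −0.04, and ALDOA −0.16 and 0.17, so that the pairs of these members disagreed in direction. With scaling to total counts, both pairs of GPI and of PFKP were below 0.

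TPI1 was the 1 member whose groups stood apart. Its 1481 and 1461 CPM with the anti-GAA ASO lay above the 1267 and 1167 of the control libraries. Groups were apart in the same direction for 15.5% of all tested genes, so 1 of 10 is near the background, and 0 of 10 members stood apart downward, against 16.9% of all genes. The log2 fold change was 0.27 ± 0.19 (SE), with 0.23 and 0.32 in the pairs.

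For GAPDH, 1 library set the direction. Its levels were 41.9 and 80.1 CPM with the anti-GAA ASO and 83.3 and 70.8 with the control. Anti-GAA replicate 1, the library with the fewest reads in all, lay far under each other library, while the other 3 spanned 70.8 to 83.3. The log2 fold change was −0.33 ± 0.32 (SE; edgeR adjusted p = 0.996). The pair of replicate 1 gave −0.99 and that of replicate 2 gave 0.18. Without anti-GAA replicate 1 the fold change turned to 0.06, and without anti-GAA replicate 2 it was −0.87 (edgeR adjusted p = 0.618). GAPDHP40 gave −0.34 in the first pair and 0.36 in the second, with a log2 fold change of 0.03 ± 0.23. With the pseudogene rows added to it, GAPDH had a log2 fold change of −0.04.

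The lower enzymes PGK1, ENO1 and LDHA were higher with the anti-GAA ASO in both pairs, within the spread between libraries, and PKM was not. With scaling to total counts the first pair was below 0 for ENO1 (−0.071) and LDHA (−0.0100). PGK1 was at 996 and 1688 CPM with the anti-GAA ASO and 799 and 1389 with the control, and its pairs gave 0.32 and 0.28. The spread between the replicates of 1 ASO was wider than that difference, and the log2 fold change was 0.29 ± 0.35 (SE). ENO1 gave 0.02 and 0.34 in the pairs, from 2562 and 2504 CPM against 2531 and 1973. LDHA gave 0.08 and 0.35, from 1387 and 1903 against 1312 and 1493. PKM gave 0.09 and −0.17. The 4 lower enzymes had log2 fold changes of −0.06 to 0.29, with adjusted p = 0.996 in edgeR for each.

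The larger differences lay between replicates, and for part of the members they ran in the same direction under both ASOs. HK2, GPI, PGK1, PKM and LDHA were higher in both replicate 2 libraries than in both replicate 1 libraries, 5 of 10 members against 25.9% of all tested genes. ENO1 alone was lower in both, against 24.9%. With scaling to total counts, the 5 stayed higher, PFKP joined them, and the libraries of ENO1 overlapped (2406 and 2490 counts scaled to library totals in anti-GAA replicates 1 and 2, and 2529 and 2101 in the controls). PGK1 was 0.80 higher in replicate 2 on the log2 scale with the control ASO and 0.76 higher with the anti-GAA ASO, and GPI was 0.51 and 0.65 higher. For TPI1, PFKP and ALDOA the differences between replicates were 0.21 or smaller in size. GAPDH differed in sign, at −0.23 with the control and 0.93 with the anti-GAA ASO.

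**Figure D4:**
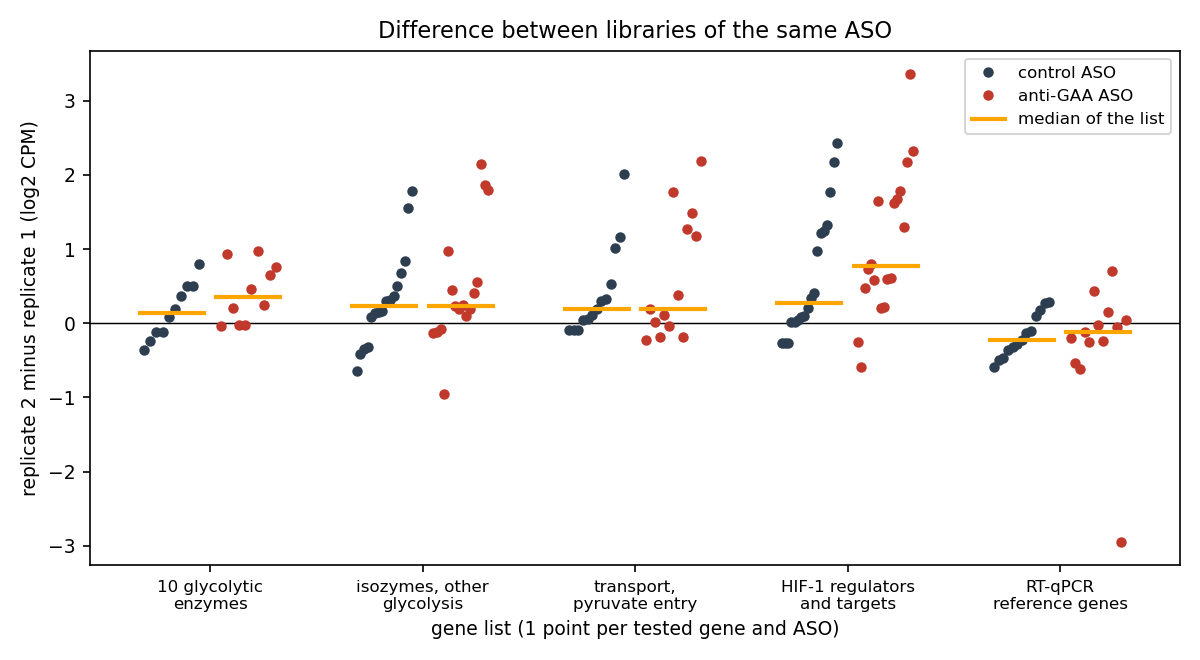
Replicate 2 minus replicate 1 (log2 CPM) within each ASO for the tested genes of 5 lists, with 1 point per gene and ASO and orange lines at the list medians. The highest points, in the lists of isozymes, transport and HIF-1 targets, include ENO2, SLC2A3, NDRG1 and CA9, and the lowest is MALAT1 with the anti-GAA ASO.

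Part of the genes around the pathway showed the same split. Among 16 tested isozymes and other glycolysis genes, 10 were higher in both replicate 2 libraries and 2 were lower in both, against 25.9% and 24.9% of all tested genes. Among the 10 was the enolase of neurons, ENO2, at 34.0 and 35.5 CPM in the replicate 1 libraries and 124 and 105 in the replicate 2 libraries (anti-GAA first). PFKFB4, which sets the activator of phosphofructokinase, was at 9.09 and 7.11 against 32.03 and 24.9. Among 13 genes of glucose and lactate transport and pyruvate entry, 6 were higher in both replicate 2 libraries and 0 lower in both. The glucose carriers SLC2A1 and SLC2A3 were at 110 and 131 against 250 and 294, and at 7.88 and 5.02 against 36.4 and 20.8. PDK1, a kinase that inhibits pyruvate dehydrogenase, was at 6.36 and 5.15 against 18.04 and 10.6. The pentose phosphate and gluconeogenesis genes did not follow, with 2 of 10 higher in both replicate 2 libraries and a median difference of −0.0091 on the log2 scale.

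Of the 18 HIF-1 regulators and targets outside glycolysis, 13 were higher in both replicate 2 libraries and 2, VHL and EGLN2, were lower in both. These compare with 25.9% and 24.9% of all tested genes. NDRG1, BNIP3L, BNIP3 and CA9, given next, were among those with the largest differences between replicates. NDRG1, a stress-induced gene, was at 90.02 and 76.9 CPM in replicate 1 and at 450 and 414 in replicate 2 (anti-GAA first). BNIP3L, a mitophagy receptor, was at 26.1 and 26.7 against 118 and 91.7, and its relative BNIP3 at 25.8 and 29.9 against 89.3 and 70.7. CA9, a carbonic anhydrase used as a hypoxia marker, had 0 and 1 reads in the replicate 1 libraries and 22 and 13 in the replicate 2 libraries. HIF1A itself was at 15.7 and 25.8 CPM against 26.2 and 26.2. The median difference between replicates over the 18 genes was 0.49 on the log2 scale, against 0.34 for the 10 glycolytic enzymes and 0.015 for all tested genes. The RT-qPCR reference genes ran the other way, with 1 of 13 higher and 7 of 13 lower in both replicate 2 libraries, against 25.9% and 24.9% of all genes, and a median of −0.18. What set the replicates apart was not tested, since the labels give no culture condition by replicate.

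The core of the HIF response element occurs in the promoter windows of most of the members, as it does in those of many genes. Promoters of 300 bases (RefSeq, GRCh38.p14, the first start listed for each gene, from 250 bases before to 50 after the start) were searched for ACGTG and GCGTG on both strands, where CACGTG counts on each strand. Of the 10 members, 8 had at least 1, against 48.4% of 27305 promoters. LDHA had 6, PGK1 4, HK2 3, ENO1 and GAPDH 2 each, GPI, ALDOA and PKM 1 each, and PFKP and TPI1 none. The start site that the window is set on lay within 50 nt of the start of the canonical transcript for 6 members, 5 of them with a core. For GPI, PFKP, ALDOA and GAPDH it did not, and that of GAPDH lay 747 nt downstream, within the gene. The upstream stretches of PGK1 and LDHA, the members with the most cores, are shown with the cores in capitals. Whether the cores bear on the difference between replicates was not tested. They are chrX:78104027-78104079 and chr11:18394368-18394504, both on the plus strand.
PGK1: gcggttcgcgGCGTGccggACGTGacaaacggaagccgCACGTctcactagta
LDHA: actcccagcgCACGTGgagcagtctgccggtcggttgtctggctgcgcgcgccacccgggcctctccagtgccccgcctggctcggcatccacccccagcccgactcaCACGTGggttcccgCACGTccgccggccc
A match of these letters is a description of the window and not a site of binding.

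None of the related lists held a gene called in edgeR with the anti-GAA ASO at an adjusted p under 0.05. Among the isozymes and other glycolysis genes the median log2 fold change was 0.13, with 6 of 16 below 0. The lowest were ENO3, the muscle enolase, at −0.69 ± 0.28 (SE), PFKFB1 at −0.61 and PFKL at −0.15, and among the highest were PFKFB4 at 0.38 and LDHB, the heart subunit of lactate dehydrogenase, at 0.37. ENO3 passed an unadjusted p under 0.05 in edgeR, not an adjusted one (adjusted p = 0.996), and was rare, at 6.06 to 11.3 CPM. GAPDHS, the sperm form of GAPDH, and PGK2 and PGAM2 were at 0 counts in all 4 libraries. PGAM1, the step after PGK1, was at 67.9, 134, 99.9 and 106 CPM in anti-GAA replicates 1 and 2 and control replicates 1 and 2, with 87.7% of its 75-base windows found elsewhere in the genome, so its level is uncertain.

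For transport and pyruvate entry the median was 0.06. SLC2A1 (−0.24), PDK3 (−0.21) and MPC1, a subunit of the mitochondrial pyruvate carrier, (−0.17) were lowest, and SLC2A3 (0.79 ± 0.80), PDK1 (0.65 ± 0.54) and PDK4 (0.27) were highest. Of the pentose phosphate and gluconeogenesis genes, 10 were tested with a median of 0.15. PC (−0.04) and RPE (0.01) were among the lowest. TKT at 0.45 ± 0.25, PCK2 at 0.39 and PGLS at 0.38 were highest. For HIF-1 regulators and targets the median was 0.21, and from −0.57 to 0.62 with 1 library left out. It lay between EPAS1 (−0.49), HIF1A (−0.31) and P4HA2 (−0.10) at the low end and CA9 (0.71 ± 1.27), VHL (0.45) and P4HA1 (0.39) at the high end.

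Among 13 genes used as RT-qPCR references beside GAPDH, log2 fold changes ran from −0.39 (GUSB) to 0.46 (SDHA), with a median of 0.06 (−0.024 with scaling to total counts, and −0.034 to 0.20 with 1 library left out). Those of TFRC, B2M and ACTB were −0.17, −0.11 and 0.00, those of MALAT1, RPLP0 and TBP 0.03, 0.05 and 0.06, and those of YWHAZ, PPIA and HPRT1 0.27, 0.33 and 0.34. SDHA, a subunit of the citric acid cycle enzyme succinate dehydrogenase, had 210 and 202 CPM with the anti-GAA ASO against 141 and 159. It passed an unadjusted p under 0.05 in edgeR, with an adjusted p of 0.996. MALAT1, a nuclear non-coding RNA, was at 727 and 94.4 CPM with the anti-GAA ASO and at 364 and 438 with the control, the widest spread on the list.

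Read against HPRT1, which the study also used as an RT-qPCR reference for total extracts, GAPDH was lower with the anti-GAA ASO in both pairs. HPRT1 was at 169 and 188 CPM with the anti-GAA ASO and at 146 and 136 with the control. The log2 ratio of GAPDH to HPRT1 was −2.01 in anti-GAA replicate 1, −1.23 in anti-GAA replicate 2, −0.81 in control replicate 1 and −0.94 in control replicate 2, so the pairs differed by −1.20 and −0.29. With the pseudogene rows added to GAPDH, the differences were −0.67 and −0.13. HPRT1 itself was higher with the anti-GAA ASO by 0.21 and 0.47 in the pairs. TPI1 and PGK1 over HPRT1 differed by 0.015 and 0.11 in the first pair and by −0.14 and −0.18 in the second. These ratios rest on 2 libraries a group and were not tested.

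The genes whose pattern over the 4 libraries was most like that of GAPDH were taken from 3614 tested genes with a mean log2 CPM within 1 of it. They were RPL4P4, EIF5AL1, KITLG, DDX3X and SLC25A24, with root mean square differences of 0.06, 0.15, 0.15, 0.16 and 0.16 in centred log2 CPM. RPL4P4, a processed pseudogene of a ribosomal protein gene, was at 67.0 CPM in anti-GAA replicate 1 and at 112 to 124 in the other 3 libraries.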

How the data were processed

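RNA of HCT116 cells was sequenced in 4 libraries, 2 for each ASO. Per the study's methods, the authors used Trimmomatic for trimming, STAR for alignment to hg19 and featureCounts for counting over Ensembl genes, after discarding alignments to GL contigs. The deposited values are raw counts per gene. The labels name a total RNA kit and the methods a stranded mRNA kit. How reads matching several places were handled, which strand was counted and which Ensembl release was used are not given in the sources used here.

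Genes kept by filterByExpr were scaled by TMM factors and tested in R 4.3.3 with edgeR 4.0.16 (quasi-likelihood F-test, ASO as the only term, Benjamini-Hochberg over 15116 genes, threshold 0.05). The SE is the log2 fold change divided by the square root of F. DESeq2 1.42.0 and the other settings of the closing section were alternatives. On simulated data with known changes and a replicate difference, this fit recovered the fold changes but did not call the changed genes, and the fit with the replicate block called most of them. The simulation gave both ASOs the same replicate difference and took its spread from the fit with the block. It therefore cannot show which fit suits these data. Pair differences are log2 CPM with a prior count of 2. Symbols, lengths and positions came from GENCODE 44 on GRCh38 by identifier, for 52181 of 63677 genes, and no hg19 position was used. Windows were searched over the whole GRCh38 genome, both strands, without mismatch. The members and lists were chosen with earlier results of these data known. Named genes were all members, every reference gene, GAPDHS, PGAM1, SLC2A1 and LDHB, any gene of a list called, the 3 highest and 3 lowest fold changes of each list, the 3 pseudogene rows of a member with most reads, and the 5 genes closest in pattern to GAPDH. Some genes that this rule names are not reported here.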

Additional observations from a re-analysis of the deposited data

How the results depend on the processing

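The labels give the replicates a shared number only. Deviations from the group means of libraries with the same number correlated at 0.56 over genes. That correlation is a hint of pairing from the data and not from the design. The first principal component held 52.7% of the variance, and which libraries it set apart is not given here. With the replicate block, edgeR called 207 genes lower and 51 higher in the whole table and 0 of 10 members, with GAPDH at −0.39 (adjusted p = 0.391). The number of members called was 0 under every setting run. Genes called in the whole table, lower and higher, were 5 and 0 with DESeq2, 111 and 5 with no filter on low counts, 45 and 13 with DESeq2 and the replicate block (added after seeing the data), and 402 and 310 with the replicate block and a length and GC correction, where 1 gene among the isozymes, SLC2A3 and PDK1 among transport and pyruvate entry (2), TKT (1) and SDHA (1) were called higher and KRT18 lower. With 1 library left out, 0 to 16 genes were called lower (2 without anti-GAA replicate 2, 16 without control replicate 1) and 0 to 3 higher. The median of the members ranged from −0.11 to 0.22 in these fits, those of the isozymes from −0.25 to 0.22 and of transport and pyruvate entry from −0.20 to 0.21, of the reference genes from −0.034 to 0.20 and of the pentose phosphate and gluconeogenesis genes from 0.12 to 0.23. The last was 0.053 with scaling to total counts. Fold changes near 0 turned sign: GPI (−0.075), PFKP (−0.085) and ALDOA (−0.082) with scaling to total counts, PFKP (−0.0020) and ALDOA (−0.0034) with no filter, and ALDOA (−0.0024) with a mean of at least 1 CPM. Leaving out 1 library, ranges crossed 0 for HK2 (−0.68 to 0.30), GPI (−0.34 to 0.32), PFKP (−0.038 to 0.060), ALDOA (−0.10 to 0.12), GAPDH (−0.87 to 0.064), PGK1 (−0.13 to 0.75), PKM (−0.30 to 0.22) and LDHA (−0.013 to 0.45), but not for TPI1 (0.22 to 0.33) or ENO1 (0.0094 to 0.35). The log2 ratio of GAPDH to its neighbours was −0.80 with the pseudogene rows added, −0.90 with GAPDHP40 added, −2.67 per countable length, −3.55 by union of exons, −3.47 by longest transcript, and −3.45 to −3.03 with 1 library left out. The SE of PGK1 (9863 to 30035 reads) was 0.35 and that of GAPDH (415 to 1426 reads) 0.32, against 0.15 and 0.21 with the replicate block.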

Other observations

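Other reference genes shared sequence with the rest of the genome to varying extents. Of the 75-base windows of its canonical transcript, RPLP0, a ribosomal stalk protein gene, had 50.4% elsewhere in GRCh38, PPIA (cyclophilin A) 24.9%, YWHAZ (a 14-3-3 protein) 18.5% and ACTB (beta-actin) 5.29%, while HPRT1 and B2M had 0% and GAPDH 3.80%. With 50-base windows ACTB had 19.1% and GAPDH 25.6%. RPLP0 was at 2019 to 2369 CPM.

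Among the epithelial markers, KRT18, a keratin of simple epithelia, was at 224 and 308 CPM with the anti-GAA ASO and at 389 and 388 with the control, a log2 fold change of −0.54 ± 0.22 (SE; edgeR adjusted p = 0.996). The groups stood apart, lower with the anti-GAA ASO, for 4 of the 6 tested epithelial markers, against 16.9% of all tested genes. EPCAM was at 641 and 628 against 740 and 729 CPM. The other markers went the other way. CDX2, an intestinal transcription factor, stood apart higher, at 23.03 and 21.7 against 19.6 and 17.3 CPM (log2 fold change 0.28), and KRT19 had a log2 fold change of 0.26.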
